A study of Mus musculus with 64 samples.

Results

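The comparison described here is that of hearts from sedentary male mice transgenic for cTnT-delta160E, a variant of cardiac troponin T (TG, n = 9) with hearts from sedentary non-transgenic males (nTG, n = 7), across all 16913 genes of the deposited gene table. These 16 libraries are part of a series of 64 in 8 groups, which cross genotype, sex and 6 weeks of treadmill high-intensity interval training or no exercise. All mice were C57BL/6J, both groups compared were sedentary and male, and each library is labelled as a biological replicate. The labels give the tissue as heart, without a chamber, and give no age, no promoter for the transgene and no copy number. Libraries were chosen by their labels, after the gene columns had been joined to the labels as described below.

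Cardiac troponin T ties the troponin complex to tropomyosin on the thin filament, and the complex switches contraction on when calcium binds to troponin C. Variants of it are a known cause of hypertrophic cardiomyopathy, a disease of thickened heart muscle in which myocytes are often disarrayed, calcium handling is altered and fibrous tissue builds up. Stressed ventricles are known to re-express genes of the fetal and skeletal muscle programmes and to draw less on fatty acid oxidation. Each heart was measured as bulk tissue, so that fewer cells of a type and less RNA per cell cannot be told apart.

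The gene columns carry library names that the counts contradict. Of the 16 libraries labelled as sedentary males, 13 had a gene column of that name with the wrong sex-linked genes or the wrong range of Tnnt2, and 8 of these columns had high Xist. Each library therefore took the gene column best correlated with its own lncRNA column. For the 16 libraries the r of the pair was 0.678 to 0.846 and the next best r at most 0.330, over 389 autosomal transcripts, which are not independent replicates. All 64 pairs were best in both directions, and 63 joined columns of different names. Within males the joined gene columns kept the order of the labels in 31 of 31 steps, and within females in 31 of 31. Once joined, 0 of 64 libraries went against their labels in sex or genotype. Xist in the 16 sedentary male libraries was at most 2.82 counts per 1000000 gene counts of the library (CPM), here without further scaling, while 4 Y-linked genes summed to 86.0 to 115 CPM. All later CPM values were scaled by TMM. With gene columns taken by name, 0 genes passed the threshold (1319 at an unadjusted p under 0.05, edgeR), and every value below rests on the join.

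Gene totals, in M counts (1 M is 1000000 counts), were 44.6 to 67.1 in nTG hearts (mean 52.3 ± 7.69, SD, n = 7) and 35.4 to 57.7 in TG hearts (mean 44.5 ± 6.29, SD, n = 9). The difference of -7.81 M had an exact permutation p of 0.0437 (two-sided, 0.0874 adjusted over 2 values). Mitochondrially encoded genes held 17.1% ± 0.808 of counts in nTG hearts (SD, n = 7) and 16.1% ± 1.38 in TG hearts (SD, n = 9), with an exact permutation p of 0.117 (two-sided, 0.117 adjusted). Some libraries stood apart by markers of other cell types. TG replicate 5 had red blood cell markers of 4626 CPM in sum, where the other 8 TG libraries had at most 1151, and nTG replicate 5 had atrial muscle markers of 601 CPM, where the other 6 nTG libraries had at most 136. Lymphocyte markers of nTG replicate 7 summed to 7.22 CPM, against 3.84 to 5.28 in the other nTG libraries.

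TG and nTG hearts differed in 3488 genes (20.6% of 16913) at a Benjamini-Hochberg adjusted p under 0.05 in edgeR's quasi-likelihood test. Of these, 1588 (9.39%) were higher and 1900 (11.2%) lower in TG hearts. The lower genes moved less. Their median log2 fold change was -0.23 (1.17-fold) and 33 changed by at least 1 log2 unit, while the higher genes had a median of 0.40 (1.32-fold) and 114 changed by at least 1. Every TG library lay above every nTG library in 135 genes (0.798% of those tested) and below in 220 (1.3%). The median over all genes tested was -0.01. Leaving out TG replicate 5 gave 2874 genes, leaving out nTG replicate 5 gave 3673, and leaving out both gave 3169. Counts of the lists below are to be read against these shares of 9.39% higher and 11.2% lower over all genes.

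**Figure D1:**
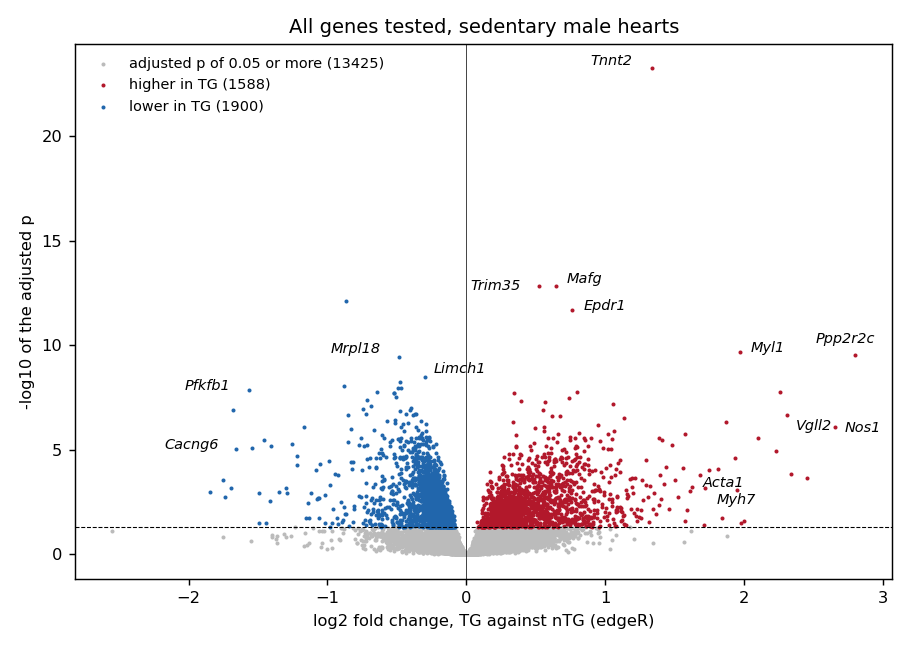
Log2 fold change between TG and nTG sedentary male hearts (x axis) against the negative log10 of the adjusted p (y axis) for the 16913 genes tested in edgeR, 1 point per gene, with the dashed line at an adjusted p of 0.05. The 1588 red genes reach further from 0 than the 1900 blue genes, and Tnnt2 has the smallest adjusted p.

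Tnnt2, the gene of cardiac troponin T (ENSMUSG00000026414, GRCm38 chr1:135836354-135852260, plus strand), separated the groups completely. It stood at 3155 to 3589 CPM (median 3201) in nTG and 6538 to 9465 CPM (median 8249.5) in TG libraries, giving 1.34 ± 0.07 on the log2 scale (with its SE, edgeR adjusted p 5.52e-24). Every TG library was above every nTG library, and the lowest TG value, in replicate 5, was still well above the highest nTG value. The counts cannot divide the total into endogenous and transgenic transcripts.

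The other called genes of the thin filament moved in both directions. Of 14 thin filament genes analysed, 3 were higher (Tnnt2, Acta1 and Tpm3) and 5 lower, against 9.39% and 11.2% of all genes tested. Tnnt2 is the gene of the transgene and served to check the join, so its call says nothing about the list. Tpm1, the main cardiac tropomyosin along which the troponin complex sits, was at 4769.6 to 5595 CPM (median 5247) in nTG and 4025 to 4605 CPM (median 4241) in TG hearts. All TG libraries were below all nTG libraries, with a log2 fold change of -0.29 ± 0.04 (edgeR adjusted p 1.21e-06). Tpm3, a tropomyosin of slow skeletal muscle and of non-muscle cells, changed the other way by 0.21 (adjusted p 0.00378). Tnnc1, the calcium sensor troponin C, fell by 0.18 on the log2 scale (adjusted p 0.00135).

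In the thick filament and Z-disc list, 4 of 24 genes were higher and 6 lower, or 16.7% and 25%, against 9.39% and 11.2% of all genes tested. Myh6, the main myosin motor of the adult mouse ventricle, was at 38672 to 46153 CPM (median 41269) in nTG and 33531 to 40273 CPM (median 34911) in TG hearts, and the ranges overlapped (log2 fold change -0.23 ± 0.05, edgeR adjusted p 0.000801). Mybpc3, cardiac myosin binding protein C, changed by -0.25 and the small heat shock chaperone Cryab by -0.23 (adjusted p 0.000519 and 8.79e-05). Rising members were the Z-disc proteins Myot (0.51, adjusted p 0.00134) and Synpo2l (0.50, adjusted p 0.000973), the M-band protein Myom3 (0.39, adjusted p 0.0142) and Myh7. The call of Myom3 was lost with only the groups compared (adjusted p 0.0723).

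In the list of hypertrophy and fetal genes calls went upward. Of 15 analysed, 6 were higher (Myh7, Acta1, Mybpc2, Nmrk2, Ankrd1 and Xirp2) and 0 lower, where 9.39% of all genes tested were higher, with a median log2 fold change of 0.42. Myh7, the slow myosin of the fetal ventricle, was at 421 to 665 CPM (median 549) in nTG and 525 to 3844 CPM (median 1802) in TG hearts. In 7 of 9 TG libraries it was above every nTG library, and in replicates 7 and 8 it was within the nTG range (log2 fold change 1.72 ± 0.38, edgeR adjusted p 0.000630). Acta1, skeletal alpha-actin, was at 63.3 to 268 CPM (median 179) in nTG and 201 to 951 CPM (median 494) in TG hearts, again with replicates 7 and 8 inside the nTG range (log2 fold change 1.63 ± 0.36, adjusted p 0.000612). Ankrd1, a nuclear and sarcomeric strain-response protein, was at 338 to 574 CPM (median 499.9) in nTG and 489.9 to 1146 CPM (median 804) in TG hearts, and the groups overlapped (log2 fold change 0.75 ± 0.19, adjusted p 0.00321). Xirp2, an actin-binding protein of the intercalated disc, rose by 0.42 and Nmrk2, a muscle kinase of NAD synthesis, by 0.78. Myh7 and Myh6, and likewise Acta1 and the cardiac actin gene, share long stretches of nearly identical sequence, so the division of reads between them is uncertain.

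Among the skeletal muscle isoforms, 2 of 8 genes separated the groups without overlap, Myl1 and Mybpc2, where every TG library was above every nTG library in 0.798% of all genes tested. Myl1, an essential myosin light chain of fast skeletal muscle, was at 6.42 to 12.3 CPM (median 10.3) in nTG and 27 to 60.4 CPM (median 41.6) in TG hearts. The lowest TG library had more than the highest nTG library, and the log2 fold change was 1.97 ± 0.21 (edgeR adjusted p 2.01e-10). Mybpc2, the fast skeletal myosin binding protein C, was at 20.1 to 32.5 CPM (median 25.2) and 44.9 to 92.3 CPM (median 54), and every TG library was higher (log2 fold change 1.13 ± 0.16, adjusted p 2.91e-07). Of 19 genes on this list 8 were analysed, of which 4 were higher and 0 lower. The count of 0 was 1 without TG replicate 3 or 8 or nTG replicate 1, 5 or 6 and in limma voom. The 11 others were not analysed here.

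The promoters of 3 of the genes that rose are shown because the MCAT element, a binding motif of the TEAD factors known from cardiac and skeletal muscle promoters, occurs in each. The sequences are those of RefSeq on GRCm38.p6, from 250 bases before to 50 bases after the transcription start, and all 3 lie on the minus strand. Acta1 is at chr8:123894726-123895025, Ankrd1 at chr19:36119795-36120094 and Myl1 at chr1:66945007-66945306. Capitals mark the MCAT letters CATTCC, or GGAATG where the motif reads on the other strand.
Acta1: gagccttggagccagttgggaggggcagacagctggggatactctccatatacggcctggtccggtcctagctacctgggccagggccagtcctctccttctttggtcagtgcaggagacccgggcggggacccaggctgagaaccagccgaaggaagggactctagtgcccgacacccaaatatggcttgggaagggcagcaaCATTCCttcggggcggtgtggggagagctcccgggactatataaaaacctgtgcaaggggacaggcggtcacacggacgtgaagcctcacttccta
Ankrd1: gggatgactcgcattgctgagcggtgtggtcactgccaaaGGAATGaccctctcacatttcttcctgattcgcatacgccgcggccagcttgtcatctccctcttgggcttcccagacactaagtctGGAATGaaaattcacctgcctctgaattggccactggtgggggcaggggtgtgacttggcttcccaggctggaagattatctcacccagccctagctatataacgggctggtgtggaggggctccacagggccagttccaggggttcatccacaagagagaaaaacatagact
Myl1: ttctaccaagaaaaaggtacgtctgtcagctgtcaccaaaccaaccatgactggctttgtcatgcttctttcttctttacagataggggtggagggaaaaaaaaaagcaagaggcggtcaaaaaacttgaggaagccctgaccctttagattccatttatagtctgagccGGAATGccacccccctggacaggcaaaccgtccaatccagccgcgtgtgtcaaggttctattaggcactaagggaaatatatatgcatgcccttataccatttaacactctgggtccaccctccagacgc

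The Acta1 promoter holds 1 MCAT match, Ankrd1 2 and Myl1 1. Of the 912 higher genes with a single promoter of this length, 12.3% held the letters on either strand, against 13.5% of 1144 lower genes, 12.2% of 9173 tested genes and 14.6% of all 22862 such promoters. The CArG box, the motif of serum response factor, was in 1.43% of the promoters of higher genes, 1.14% of lower genes, 1.25% of tested genes and 1.53% of all, and Acta1 holds 1. Both shares in higher genes were close to those of all tested genes. These are matches of letters and not measured binding.

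The natriuretic peptides did not pass in edgeR. Nppa, atrial natriuretic peptide, was at 28.2 to 363 CPM (median 55.5) in nTG and 33.5 to 288 CPM (median 174) in TG hearts. The highest value of all was nTG replicate 5, the library rich in atrial muscle markers (a list that includes Nppa, with Myl4 at 164 CPM and at most 45.9 in the other nTG libraries), and 7 of 9 TG libraries were above the other 6 nTG libraries. The log2 fold change was 0.73 ± 0.45 (edgeR adjusted p 0.260), and 1.67 without nTG replicate 5 (adjusted p 0.00388). Nppb, B-type natriuretic peptide, was at 56.2 to 87.4 CPM (median 78.9) and 57.5 to 188 CPM (median 121), with a log2 fold change of 0.53 ± 0.25 (adjusted p 0.123). Of 9 genes of the natriuretic system, 1 was lower and 0 higher. In limma voom with quality weights Nppa passed (log2 fold change 1.09, adjusted p 0.0316), and 2 of the genes were higher and 2 lower, while DESeq2, the replicate block and a minimum mean of 50 counts each called 1 higher. Without nTG replicate 5, 2 were higher, and without TG replicate 3, 6 or 9 or nTG replicate 6, 1 was, while the lower genes numbered 2 without nTG replicate 6. The lower gene was Corin, the protease that activates the atrial peptide, which was lower by a log2 fold change of -0.30 (adjusted p 0.00501). How much atrium each sample held is not given in the labels, and its part in the Nppa values was not tested.

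The TG hearts were not alike. TG replicates 7 and 8 sat nearest to the nTG libraries in most genes that changed. Replicate 7 had the lowest TG value in 549 of the 1588 higher genes (34.6%) and replicate 8 in 519 (32.7%), while the 7 other TG libraries had between 41 and 121. Among the 1900 lower genes, replicate 7 was highest in 512 (26.9%) and replicate 8 in 640 (33.7%). Myh7 was at 578 and 525 CPM in these 2 libraries, Nppa at 50.8 and 33.5 CPM and Tnc, a matrix protein of injured tissue, at 2.74 and 2.71 CPM, each within the nTG range of that gene. Their Tnnt2 was not low: at 9465 and 9097 CPM it was the highest and second highest of the TG libraries after TMM scaling. Without that scaling replicate 7 was at 9239 CPM, still the highest, and replicate 8 at 8900 CPM, below replicates 6 (9207) and 3 (9204). Replicate 8 had the smallest total of the 16 libraries, 35.4 M counts, and replicate 7 had 42.9 M. The mitochondrially encoded share was 18.0% in replicate 7, the highest TG value, and 16.9% in replicate 8. The part of these values in the pattern was not tested. In genes that rose, the median SD of log2 CPM (pseudocount 0.5) was 0.199 in TG and 0.175 in nTG libraries. It was 0.117 and 0.111 in genes that fell, and 0.156 and 0.157 in genes that did not pass.

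**Figure D2:**
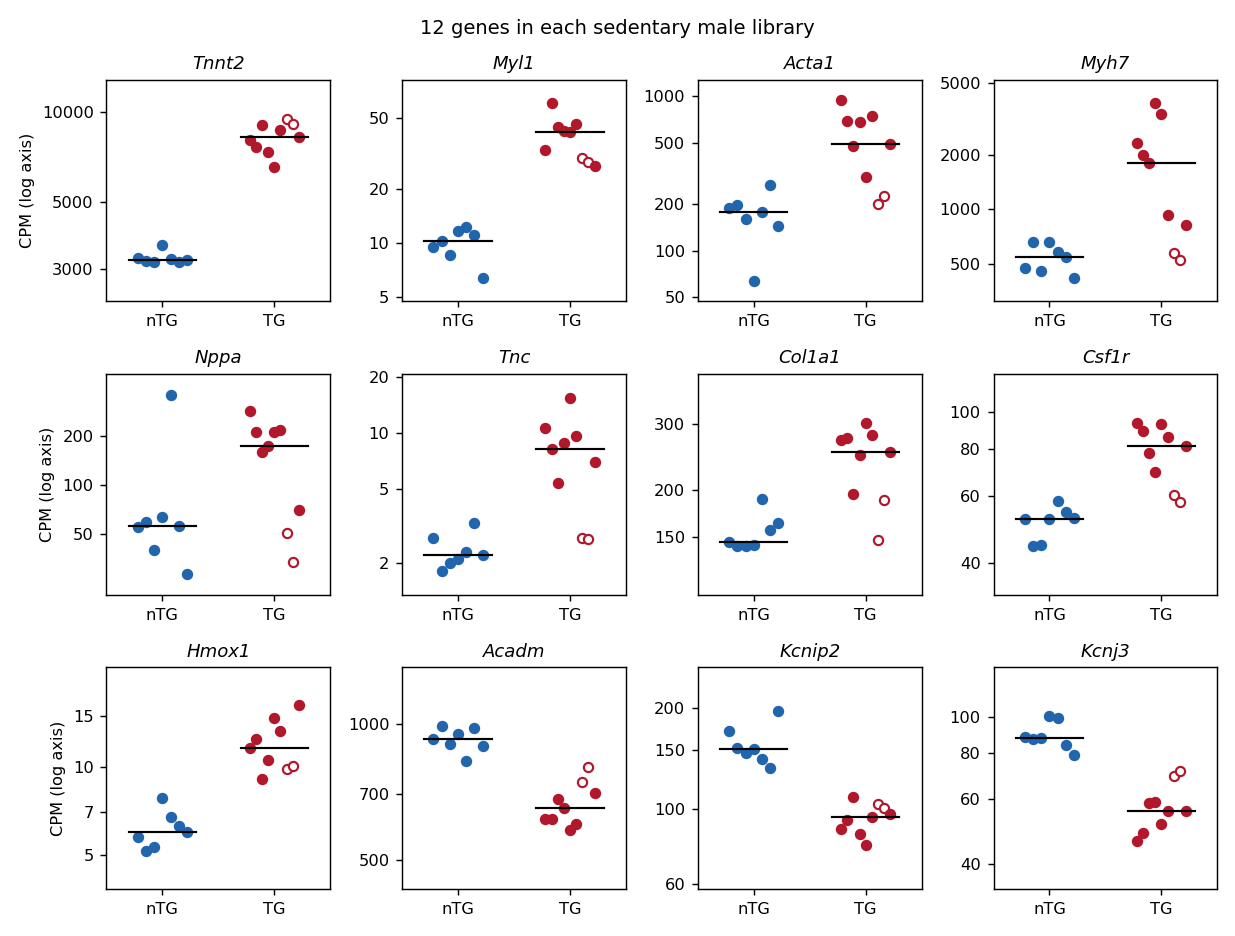
Expression of 12 genes in the 7 nTG (blue) and 9 TG (red) sedentary male libraries, in CPM on a log axis that differs between panels, 1 point per library in order of replicate and a line at the median. Open circles are TG replicates 7 and 8, which have the 2 highest TMM-scaled Tnnt2 values (replicate 8 is lower than 3 others without that scaling) and lie in or near the nTG range for Myh7, Nppa, Tnc and Csf1r.

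Among genes of calcium handling and of cardiac repolarization, more were lower than higher. In the calcium cycling list 10 of 27 genes were lower and 2 higher (11.2% and 9.39% of all genes), with a median log2 fold change of -0.12. The count of 2 was 1 without TG replicate 2, 4, 7 or 8 or nTG replicate 2, 3 or 4 and with only the groups compared. Hrc, which binds calcium inside the sarcoplasmic reticulum, was at 734 to 923 CPM (median 821) in nTG and 498 to 676 CPM (median 585) in TG hearts. No TG library reached the nTG range (log2 fold change -0.52 ± 0.06, edgeR adjusted p 1.81e-08). Atp2a2, the calcium pump SERCA2, was at 16769 to 20774 CPM (median 19397) and 13713 to 18748 CPM (median 15757), a fall of 0.29 on the log2 scale with overlapping groups (adjusted p 0.000133). Its inhibitor Pln changed by -0.31 and the sodium-calcium exchanger Slc8a1 by -0.32 (adjusted p 0.00404 and 2.25e-05). Ryr2, the calcium release channel, had a log2 fold change of -0.09 ± 0.05 and did not pass (adjusted p 0.263). Camk2b, an isoform of the calcium-calmodulin kinase, rose by 0.41, and all its TG values were above the nTG range.

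Of 20 potassium channel genes, 9 were lower and 0 higher (median -0.19), where 11.2% of all genes tested were lower. Kcnip2, the auxiliary subunit of the transient outward current, was at 133 to 195 CPM (median 151) in nTG and 78.5 to 109 CPM (median 94.9) in TG hearts. The groups did not overlap, and the log2 fold change was -0.72 ± 0.10 (edgeR adjusted p 2.01e-07). Kcnj3, a subunit of the acetylcholine-activated potassium channel, was at 78.6 to 101 CPM (median 87.8) and 46.4 to 71.3 CPM (median 55.6), with all TG libraries lower (log2 fold change -0.64 ± 0.08, adjusted p 1.66e-08). Kcnv2, a silent subunit, changed by -0.78 and Abcc9, the sulphonylurea receptor of the ATP-sensitive channel, by -0.31. Among 15 sodium and calcium channel and connexin genes, 1 was higher and 0 lower (median -0.11). These counts were 2 higher without nTG replicate 6 and 1 lower without TG replicate 7 or 8 or nTG replicate 7. They were 2 higher and 2 lower in limma voom, 2 lower with the replicate block and 1 lower with only the groups compared.

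In the beta-adrenergic and cAMP list 8 of 25 genes were lower and 1 higher (11.2% and 9.39% of all genes), with 2 higher without TG replicate 7 or 8 or nTG replicate 5, in limma voom, with the replicate block and with a minimum mean of 50 counts. The muscarinic receptor Chrm2, the alpha-adrenergic receptor Adra1b and the catalytic subunit of protein kinase A, Prkaca, changed by -0.47, -0.50 and -0.21 (edgeR adjusted p 2.72e-06, 5.87e-05 and 0.000200). Arrb2, which uncouples receptors from their G proteins, rose by 0.52. Adrb1, the main cardiac beta receptor, had a log2 fold change of -0.18 ± 0.09 (adjusted p 0.155) and did not pass. Of 21 genes of the calcineurin, NFAT and MEF2 list, 6 were lower and 1 higher. The count of 1 was 0 without TG replicate 4 or 5 or nTG replicate 2, 4 or 6, and 2 without TG replicate 7 or 8 or nTG replicate 5. In the IGF1, PI3K and neuregulin list 1 of 22 was higher and 2 lower, the higher being the growth factor Igf1 (0.52, adjusted p 0.000840). A further gene was higher without TG replicate 3, 4 or 7 or nTG replicate 5 or 7, making 2, as in DESeq2, with its size factors or library sizes without mitochondrial genes and Tnnt2 in edgeR, with a minimum mean of 50 counts, with the replicate block and with only the groups compared. In the renin-angiotensin and endothelin list 2 of 11 were higher, the angiotensin-converting enzyme Ace (0.45) and the endothelin receptor Ednrb (0.38), and 1 was lower (0 without TG replicate 6 or 9 or nTG replicate 1). Among 25 genes of the intercalated disc and of strain sensing, 4 were higher and 8 lower. Ankrd23, a strain-response relative of Ankrd1, rose by 0.55 and Fhl2, a sarcomeric adaptor, fell by 0.32 on the log2 scale. The count of 8 was 4 without TG replicate 6 or without nTG replicate 4, and 5 without TG replicate 1, 2 or 5.

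**Figure D3:**
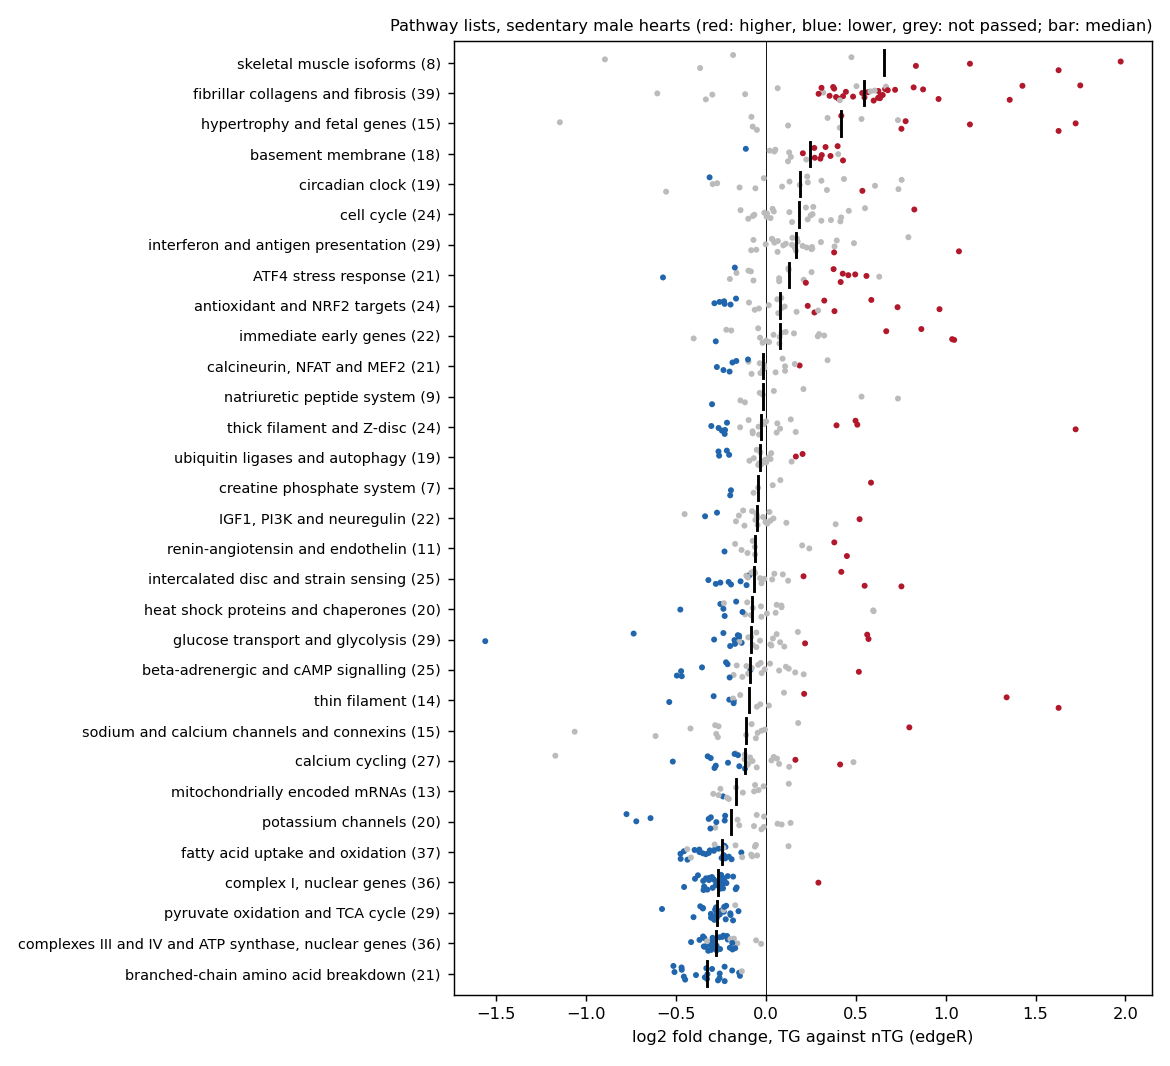
Log2 fold change between TG and nTG sedentary male hearts (x axis) for the members of 31 pathway lists (rows, number analysed in brackets), 1 point per gene, with a bar at the list's median. Lists of fatty acid oxidation, the TCA cycle, the respiratory complexes and branched-chain amino acid breakdown lie almost wholly to the left of 0, and fibrosis genes lie mostly to the right.

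Matrix genes rose. Of 39 genes of fibrillar collagens and fibrosis, 28 were higher and 0 lower, where 9.39% of all genes tested were higher, with a median log2 fold change of 0.55. Mmp2, a gelatin-degrading protease of fibroblasts, was at 63.9 to 85.6 CPM (median 66.2) in nTG and 79.4 to 169.8 CPM (median 127) in TG hearts. In 7 of 9 TG libraries it was above every nTG library, with replicates 7 and 8 inside the nTG range, and the log2 fold change was 0.87 ± 0.14 (edgeR adjusted p 6.48e-06). Tgfb2, a profibrotic growth factor, was at 11 to 16.9 CPM (median 13.2) and 15.8 to 34.7 CPM (median 20.8) (log2 fold change 0.82 ± 0.14, adjusted p 2.28e-05). Tnc rose from 1.82 to 3.3 CPM (median 2.23) to 2.71 to 15.4 CPM (median 8.25), with 7 of 9 TG libraries above all nTG libraries (log2 fold change 1.75 ± 0.33, adjusted p 8.89e-05).

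Structural collagens were among the higher genes. Col1a1, the main chain of type I collagen, was at 142 to 189.7 CPM (median 146) in nTG and 147 to 302 CPM (median 252) in TG hearts, with TG replicates 7 and 8 within the nTG range (log2 fold change 0.63 ± 0.16, edgeR adjusted p 0.00252). Col1a2, Col3a1 and Col6a3 rose by 0.62, 0.55 and 0.64. Cilp, a matrix protein of activated fibroblasts, rose by 1.36, and Timp1, an inhibitor of matrix proteases, by 1.43. Mmp14, which activates Mmp2, rose by 0.72 (adjusted p 4.16e-05). Postn, a marker of activated fibroblasts, was at 26.1 to 48.7 CPM (median 35) and 30.3 to 76.8 CPM (median 57.8), a log2 fold change of 0.66 ± 0.22 (adjusted p 0.0232). Its adjusted p was 0.0530 to 0.0623 when any of TG replicate 5 and nTG replicates 2, 4 or 7 was left out. In the basement membrane list 9 of 18 genes were higher and 1 lower, and that 1 was 0 without any of TG replicates 1, 3, 4, 5, 6 and 9 and nTG replicates 1, 2, 3, 4, 5 and 7. It was also 0 in DESeq2, with both other library sizes, with library number as a covariate, with a minimum mean of 50 counts and with only the groups compared. The laminin chain Lamc1 and the linker Nid1 rose by 0.27 and 0.33 with no overlap between groups, and Col4a5 by 0.31.

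Markers of 2 cell types besides myocytes moved with these genes. Of 10 fibroblast markers, 3 of which are also in the fibrosis list, 9 were higher, and their summed level was 1917 to 2757 CPM (median 2113) in nTG and 2244 to 3155 CPM (median 2994) in TG hearts. Lum, a small proteoglycan of fibroblasts, rose by 0.79 and Dcn by 0.37. Of 21 macrophage markers, 17 were higher and 0 lower, where 9.39% of all genes tested were higher, with summed levels of 371 to 525 CPM (median 485) and 479 to 831 CPM (median 695) and 8 of 9 TG libraries above all nTG libraries. The part of cell numbers in the matrix genes was not tested.

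Csf1r, the receptor that macrophages need to survive, was at 44.3 to 58.1 CPM (median 52.3) in nTG and 57.9 to 93.5 CPM (median 81.3) in TG hearts. Only the lowest TG library, replicate 8, was inside the nTG range (log2 fold change 0.62 ± 0.09, edgeR adjusted p 2.59e-06). C1qb, a complement component made by tissue macrophages, was at 25 to 35.3 CPM (median 28.6) and 32.7 to 63 CPM (median 53.5) (log2 fold change 0.80 ± 0.13, adjusted p 7.33e-06). The scavenger receptor Cd68 rose by 0.85, Lgals3, a lectin of activated macrophages, by 0.86, and the markers of resident macrophages Lyve1 and Timd4 by 0.75 and 0.68. Csf1, a ligand of Csf1r, was at 51.6 to 63.4 CPM (median 54.8) in nTG and 72.6 to 94.4 CPM (median 80.9) in TG hearts, with all TG libraries higher (log2 fold change 0.55 ± 0.07, adjusted p 1.28e-07).

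Of 10 cardiomyocyte markers, 6 were lower and 1, Tnnt2, higher (11.2% and 9.39% of all genes), and their summed level was 67130.0 to 79652 CPM (median 73257) in nTG and 64034 to 76530.0 CPM (median 67934) in TG hearts. That sum includes Tnnt2, at a median of 3201 CPM in nTG and 8249.5 CPM in TG libraries, so it understates the fall of the other markers. In endothelium 0 of 13 markers passed in edgeR (median 0.00), and 1 was lower in limma voom. In pericytes and smooth muscle 1 of 11 was lower (2 without TG replicate 9 or with the replicate block) and 0 higher (1 without TG replicate 3 or 6 or nTG replicate 5 or 7, in DESeq2, in limma voom, with a minimum mean of 50 counts and with only the groups compared). In T and B lymphocytes 1 of 7 was higher, but 0 without TG replicate 2 or 5 or nTG replicate 1, 2 or 3, with a minimum mean of 50 counts and with only the groups compared. In neutrophils 0 of 3 passed, in mesothelium and epicardium 1 of 3 was higher and in Schwann cells 1 of 4 was lower. The atrial markers Myl7 and Myl4 ranged from 0.0976 to 59.5 CPM (median 12.9) and 1.5 to 164 CPM (median 21.3) in nTG to 0.0627 to 25.3 CPM (median 3.8) and 1.3 to 65.4 CPM (median 11.4) in TG hearts, and 0 of 4 atrial markers passed, or 1 without nTG replicate 5 and in limma voom. Among red blood cell markers 1 of 6 passed, Slc4a1, the anion exchanger of red cells, whose log2 fold change was 1.84 with TG replicate 5 and -0.19 without it. Slc4a1 was not called in limma voom, with the replicate block or with only the groups compared (adjusted p 0.910, 0.186 and 0.150). The adipocyte markers Cfd and Car3 passed (1.98 and 1.72), with the highest values of both in TG replicate 5. Without that library their log2 fold changes were 1.11 and 0.76, with edgeR adjusted p of 0.259 and 0.398, and neither passed without nTG replicate 1, 2, 3, 4 or 7 either. Neither passed in limma voom or with only the groups compared. Of the 4 adipocyte markers analysed, 1 was higher without nTG replicate 6, and all 4 were without nTG replicate 5. The list's median of 1.67 was 2.57 without nTG replicate 5 and 0.755 without TG replicate 5, when 0 were higher. With both replicates 5 left out, 2 of the 4 were higher and the median was 1.65.

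**Figure D4:**
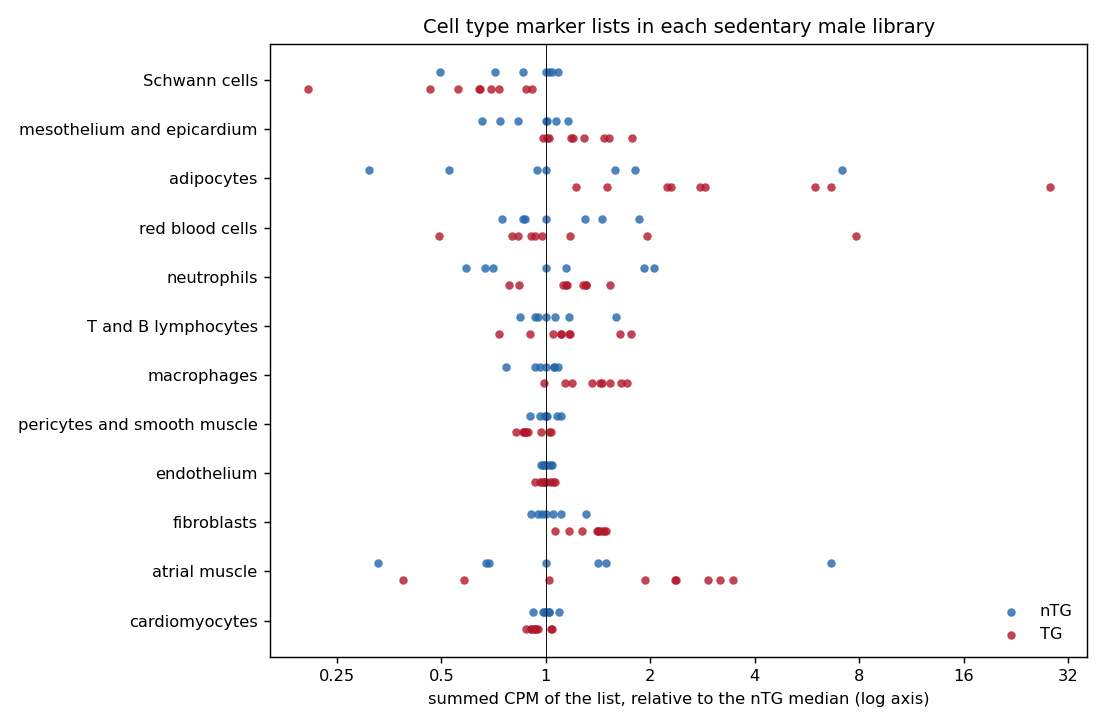
Summed CPM of 12 cell type marker lists in each nTG (blue) and TG (red) sedentary male library, relative to the nTG median (x axis, log scale), 1 point per library. The cardiomyocyte sum includes Tnnt2. TG libraries lie mostly to the right in fibroblasts and macrophages, while TG replicate 5 stands far out in red blood cells and adipocytes and nTG replicate 5 in atrial muscle.

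Most nuclear genes of oxidative metabolism were lower. Cardiomyocyte markers had a median log2 fold change of -0.19 (6 of 10 lower) beside them, and fibroblast and macrophage markers 0.46 and 0.60. The part of cell makeup in these falls was not tested. In fatty acid uptake and oxidation 25 of 37 genes were lower and 0 higher, with a median log2 fold change of -0.25, where 11.2% of all genes tested were lower. Acadm, the medium-chain acyl-CoA dehydrogenase, was at 830.1 to 991 CPM (median 925) in nTG and 581 to 803 CPM (median 650.5) in TG hearts. All TG libraries were below all nTG libraries, with replicates 7 and 8 the highest of the TG libraries (log2 fold change -0.47 ± 0.06, edgeR adjusted p 1.35e-07). Etfdh, which passes electrons from fatty acid oxidation to ubiquinone, and Hadha, of the trifunctional protein, changed by -0.46 and -0.40, also without overlap. Cpt1b, which lets fatty acids into mitochondria, changed by -0.24, and the fatty acid transporter Cd36 by -0.23 (adjusted p 0.000168 and 0.0111). The call of Cd36 was lost without nTG replicate 6 (adjusted p 0.0574). Ppargc1a, a coactivator of mitochondrial genes, did not pass: it was at 119 to 134 CPM (median 125) in nTG and 94.8 to 132 CPM (median 125) in TG hearts (log2 fold change -0.06 ± 0.07, adjusted p 0.602).

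In pyruvate oxidation and the TCA cycle 27 of 29 genes were lower and 0 higher, and all 29 fold changes were below 0 (median -0.27). Cs, citrate synthase, was at 1212 to 1412 CPM (median 1329) in nTG and 989.6 to 1177 CPM (median 1059) in TG hearts, without overlap (log2 fold change -0.29 ± 0.05, edgeR adjusted p 5.86e-06). Idh2, the mitochondrial isocitrate dehydrogenase that makes NADPH, and Dlst, of the oxoglutarate dehydrogenase complex, changed by -0.40 and -0.27 without overlap. Sdha, of succinate dehydrogenase, changed by -0.35.

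Of 36 nuclear genes of complex I, the entry point of the respiratory chain, 35 were lower and 1 higher (median -0.27). Ndufa10, an accessory subunit, was at 384 to 488 CPM (median 459) in nTG and 322 to 387 CPM (median 349) in TG hearts (log2 fold change -0.33 ± 0.05, edgeR adjusted p 2.72e-06). Of the TG libraries, replicate 7 was within the nTG range and the 8 others were below it. The exception was Ndufb4, another accessory subunit, which rose by 0.29, and the groups did not overlap. Copies of Ndufb4 elsewhere in the genome are nearly identical, so its counts are uncertain. In complexes III and IV and ATP synthase 30 of 36 nuclear genes were lower and 0 higher (median -0.28), among them the Rieske protein Uqcrfs1 (-0.35), the muscle isoform Cox7a1 (-0.42) and Atp5a1, the alpha subunit of ATP synthase (-0.32). Of 13 mitochondrially encoded mRNAs, 1 passed, the cytochrome oxidase subunit mt-Co1 (-0.24, adjusted p 0.00414), and 5 passed without TG replicate 7 and 2 without TG replicate 3 or 8 or nTG replicate 3 or 5. DESeq2, the replicate block and the fit of only the groups compared each called 2, and limma voom 3. With library sizes that leave out mitochondrial genes and Tnnt2, the counts of lower genes were 24, 27, 35 and 30 in the 4 nuclear lists, in the order given.

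Breakdown of branched-chain amino acids had 20 of 21 genes lower and 0 higher, where 11.2% of all genes tested were lower, with the lowest median of the 31 pathway lists (-0.33). Mccc2, of methylcrotonyl-CoA carboxylase in leucine breakdown, was at 50.0 to 55.2 CPM (median 54.9) in nTG and 34.1 to 43.9 CPM (median 38.6) in TG hearts, without overlap (log2 fold change -0.47 ± 0.06, edgeR adjusted p 1.03e-08). Ivd, isovaleryl-CoA dehydrogenase of the same path, was at 339 to 448 CPM (median 387) and 237 to 314 CPM (median 266), and every TG library was lower (log2 fold change -0.51 ± 0.06, adjusted p 2.79e-08). Pcca, of propionyl-CoA carboxylase, and Aldh6a1, of valine breakdown, changed by -0.47 and -0.45. Klf15, a transcription factor known to drive this pathway in heart, had a log2 fold change of -0.13 ± 0.12 (adjusted p 0.461) and did not pass.

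Of 29 genes of glucose transport and glycolysis, 12 were lower (41.4%, against 11.2% of all genes) and 3 higher (10.3%, close to the 9.39% of all genes), and 14 did not pass. Pfkfb1, which makes the activator of phosphofructokinase, was at 5.66 to 8.72 CPM (median 6.43) in nTG and 1.25 to 4.25 CPM (median 2.18) in TG hearts, without overlap (log2 fold change -1.56 ± 0.19, edgeR adjusted p 1.28e-08). The glucose transporters Slc2a12 and Slc2a4 changed by -0.74 and -0.24. Of the phosphofructokinases, the muscle form Pfkm changed by -0.29 and the platelet form Pfkp rose by 0.57 (adjusted p 5.84e-07 and 2.28e-05). In the creatine phosphate system 2 of 7 genes were lower and 1 higher, the higher being Gatm, of creatine synthesis (0.58).

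Stress pathways had calls in both directions. Among antioxidant and NRF2 target genes 7 of 24 were higher and 6 lower, against 9.39% and 11.2% of all genes tested. Hmox1, haem oxygenase 1, was at 5.16 to 7.81 CPM (median 5.99) in nTG and 9.09 to 16.3 CPM (median 11.6) in TG hearts, with all TG libraries higher (log2 fold change 0.97 ± 0.15, edgeR adjusted p 3.84e-06). Srxn1, sulfiredoxin, rose by 0.59, while the mitochondrial enzymes Prdx5 and Sod2 changed by -0.29 and -0.23. Ftl1, the light chain of ferritin, was at 194 to 259 CPM (median 216) and 285 to 379 CPM (median 326), without overlap (log2 fold change 0.57 ± 0.07, adjusted p 5.09e-08), though processed copies of this gene can share its reads. Of 20 heat shock proteins and chaperones, 6 were lower and 0 higher, including the chaperone of the endoplasmic reticulum Hspa5 (-0.48, adjusted p 2.36e-05). The count of 0 was 1 without TG replicate 4, 7, 8 or 9, and 2 without TG replicate 3 or nTG replicate 3. It was 1 with the replicate block and with a minimum mean of 50 counts.

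In the ATF4 stress response list 7 of 21 genes were higher and 2 lower, against 9.39% and 11.2% of all genes tested. The count of 7 was 1 without nTG replicate 1 or 2, 2 without TG replicate 6 or nTG replicate 3 or 4, 3 without TG replicate 2, and 4 without TG replicate 1 or 3 or nTG replicate 7 and with library number as a covariate, and the count of 2 was 1 without TG replicate 5 or nTG replicate 2, 3 or 6. Slc7a5, an amino acid transporter of that list, rose by 0.38 (edgeR adjusted p 0.00423). Ubiquitin ligases and autophagy had 2 of 19 genes higher and 4 lower, among them the autophagosome protein Map1lc3b (-0.20, adjusted p 2.95e-05). The count of 2 was 1 without nTG replicate 3 or 7 and 0 with both replicates 5 left out. Immediate early genes had 4 of 22 higher and 1 lower, among the higher ones Egr3 (1.04) and Myc (0.67). The lower gene was lost without TG replicate 1, 2, 5, 6, 8 or 9 or nTG replicate 1, 2, 4, 5 or 7, and also with both other library sizes, the replicate block and a minimum mean of 50 counts. The circadian clock had 1 of 19 higher (Bhlhe40, 0.54) and 1 lower, with 3 higher without nTG replicate 7 and 0 lower without TG replicate 5 or nTG replicate 2. The cell cycle had 1 of 24 higher, which was 0 without TG replicate 2 or 6 or nTG replicate 2, 4 or 5, and 2 without TG replicate 8 or 9. It was 0 with a minimum mean of 50 counts and 2 in limma voom. In interferon and antigen presentation 2 of 29 were higher and 0 lower. The count of 2 was 0 without TG replicate 5 or nTG replicate 3, 4 or 6 and with both replicates 5 left out, 1 without TG replicate 1, 2, 3 or 6 or nTG replicate 1 or 2, 4 without TG replicate 8 and 9 without nTG replicate 7. It was 7 in limma voom and 1 with library number as a covariate.

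Outside these lists, the higher genes with the smallest p after Tnnt2 were Trim35, Mafg and Epdr1. Trim35, a ubiquitin ligase, was at 115 to 128 CPM (median 119) in nTG and 162 to 186 CPM (median 169.9) in TG hearts (log2 fold change 0.52 ± 0.04, edgeR adjusted p 1.45e-13). Mafg, a small Maf partner of NRF2, was at 44.2 to 50.9 CPM (median 47.3) and 65 to 93.4 CPM (median 72) (log2 fold change 0.65 ± 0.06, adjusted p 1.47e-13). Epdr1 was at 16.2 to 19.8 CPM (median 17.1) and 25.3 to 34.8 CPM (median 31.3) (log2 fold change 0.77 ± 0.07, adjusted p 2.07e-12). None of the 3 overlapped between groups. Ppp2r2c, a regulatory subunit of protein phosphatase 2A, had the largest change of the named genes, from 0.398 to 1.18 CPM (median 0.777) to 2.27 to 9.5 CPM (median 4.85) without overlap (log2 fold change 2.80 ± 0.30). Nos1, neuronal nitric oxide synthase, rose by 2.66 and Vgll2, a cofactor of TEAD factors known from skeletal muscle, by 2.31, both without overlap. Fetub and Fbln7 rose by 2.26 and 2.24, and their groups overlapped. Mrtfb, a coactivator of serum response factor, rose by 0.34, the unconventional myosin Myo9b by 0.39 and Thap1 by 0.74, without overlap.

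Among falling genes that are not clone names, Gm or Rik symbols or pseudogenes and have enough counts to be named, Mrpl18, a mitochondrial ribosomal protein, had the smallest p, at 36.9 to 45.4 CPM (median 41.2) in nTG and 26.5 to 33.8 CPM (median 28) in TG hearts (log2 fold change -0.48 ± 0.05, edgeR adjusted p 3.58e-10). Limch1 was at 295 to 333 CPM (median 322) and 242 to 270.1 CPM (median 262) (log2 fold change -0.30 ± 0.03, adjusted p 3.12e-09). Acad11, an acyl-CoA dehydrogenase, fell by 0.49 on the log2 scale, Pcp4l1 by 0.52, Fah, the last enzyme of tyrosine breakdown, by 0.72 and Abat, GABA transaminase, by 0.69. In all 6 genes every TG library was below every nTG library. Cacng6, a calcium channel gamma subunit, had a change of -1.66 without overlap. The changes of Lmntd1 (-1.49, adjusted p 0.0307) and Poln, a DNA polymerase (-1.49, adjusted p 0.00110), came with overlapping groups. The adjusted p of Lmntd1 was 0.0518 to 0.0853 when any of TG replicates 1, 2 and 3 or nTG replicates 2, 4 and 5 was left out, 0.0701 in limma voom and 0.0537 with the replicate block. Of 132 genes named for their values, 43 have exons that overlap a gene on the other strand in GENCODE M21, among them Mrpl18 with Tcp1, Myh7 with Mhrt and Kcnj3 with Gm26794. Whether counting used the strand is not given in the sources used here, so reads of such partners cannot be told apart. Exons of 10 of the 132 genes overlap a gene on the same strand, which the strand of a read would not separate.

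The same genotype comparison was made in 16 libraries of trained males and 16 libraries of sedentary females. In trained males 2361 genes passed (14.0% of those tested), 956 higher (5.65%) and 1405 lower (8.31%), and in sedentary females 739 (4.37%), 268 higher (1.58%) and 471 lower (2.78%). These comparisons share no library with the one above, although 1 model estimated the spread for all. Calls in the same direction numbered 1168 with trained males, which is 33.5% of the calls in sedentary males and 49.5% of those in trained males. With sedentary females they numbered 570, or 16.3% and 77.1%. Opposite calls numbered 4 and 0. Tnnt2 differed by 1.43 in trained males and 1.71 in sedentary females. Acta1, with 1.63 in sedentary males, had a log2 fold change of 0.10 in trained males (edgeR adjusted p 0.893) and 1.11 in sedentary females (adjusted p 0.0477). Myh7 had 0.81 and 0.96 and passed in neither (adjusted p 0.130 and 0.131).

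Whether the effects differ was asked by interaction terms. No gene passed the genotype by training term in males (0 of 16913, 0.0%, with 2503 or 14.8% at an unadjusted p under 0.05 in edgeR; DESeq2 called 1 and limma voom with quality weights 300). In sedentary mice no gene passed the term of genotype by sex (0 of 16913, 0.0%, with 1471 or 8.7% at an unadjusted p under 0.05; DESeq2 called 1, the replicate block 1 and limma voom 0). The genes with the smallest p in the training term were Ltc4s, Fam20a and Plppr2. Ltc4s, leukotriene C4 synthase, had a log2 fold change of 1.11 ± 0.20 in sedentary males and -0.16 in trained males, an interaction of 1.28 (edgeR adjusted p 0.131). Fam20a and Plppr2 had interactions of 0.50 and 0.58 (adjusted p 0.131 and 0.131). In the sex term they were Frmpd3, Aplf and Gucy1b1, with interactions of -1.26, -0.55 and -0.31 (adjusted p 0.210, 0.308 and 0.363).

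Among the lists, macrophage markers had the largest share of small p in the sex term. Their median log2 fold change was 0.60 in sedentary males, 0.37 in trained males and 0.12 in sedentary females, where 0 of 21 passed. The genotype by sex term was above 0 in 21 of 21 markers and had an unadjusted p under 0.05 in 19, with a smallest edgeR adjusted p of 0.377, so none passed. The training term had an unadjusted p under 0.05 in 5 of 21. In the fibrosis list the medians were 0.55, 0.24 and 0.21, and 8 of 39 genes had an unadjusted p under 0.05 for the sex term and 3 of 39 for the training term, where all genes had 8.7% and 14.8%. Of the oxidative lists, the TCA cycle had medians of -0.27, -0.11 and -0.10, with 27, 11 and 6 of 29 genes lower. The sex term had an unadjusted p under 0.05 in 11 of these genes and the training term in 13. Skeletal muscle isoforms had medians of 0.65, 0.26 and 0.70 over 8 genes, with 0 and 1 of them under that p for the sex and training terms.

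**Figure D5:**
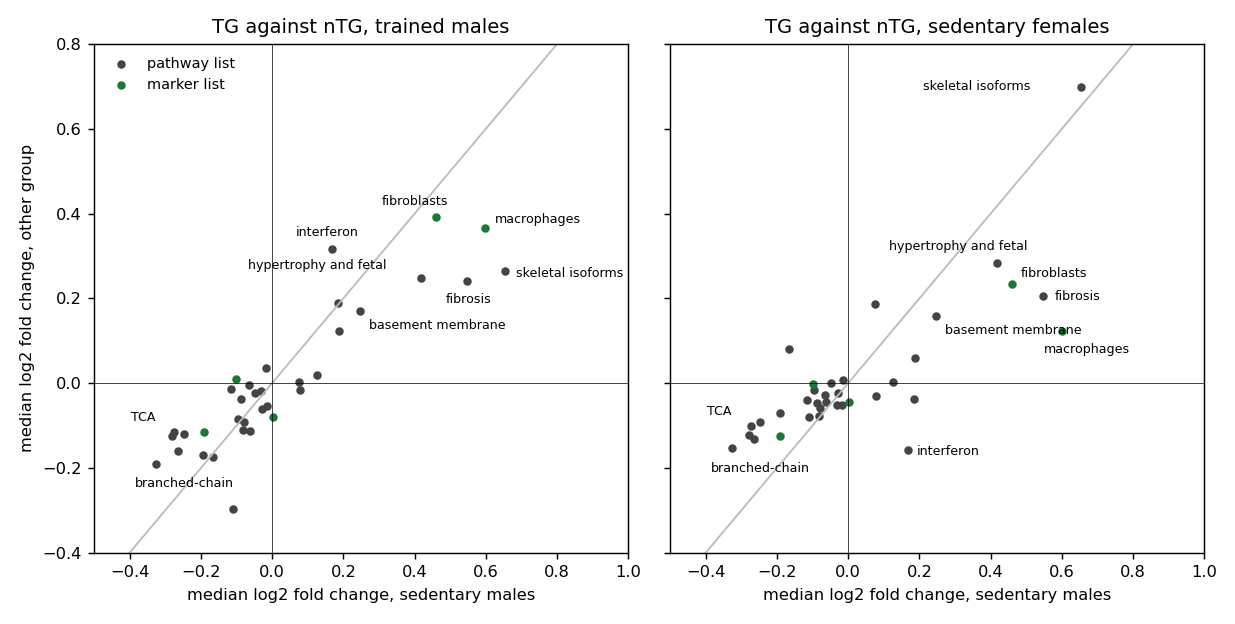
Median log2 fold change between TG and nTG of each list with at least 8 genes analysed, in sedentary males (x axis) against trained males (left) and sedentary females (right), 1 point per list, with a grey line of equal values. Macrophage markers are at 0.60 in sedentary males and 0.12 in sedentary females, while skeletal isoforms are at 0.65 and 0.70.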

How the data were processed

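Ribosomal RNA-depleted total RNA of 64 mouse hearts was sequenced by the authors. Per the submitters' processing notes, cutadapt 2.3, FastQC 0.11.8, MultiQC 1.7, STAR 2.7.8a and RSEM 1.3.3 were used with GRCm38/mm10. The deposited gene table holds whole-number counts for 16913 genes, and the authors' lncRNA table holds expected counts, 45 of 3787 transcripts with fractions. No column was unused (0).

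The lncRNA expected counts served, unrounded, only to match columns: autosomal transcripts shared by the tables, with 20 or more counts on average, were taken to log2 CPM (pseudocount 0.5) and centred, and columns were paired by Pearson correlation. Counts of 8 groups were fitted in 1 model over 64 libraries with edgeR 4.0.16 (R 4.3.3, filterByExpr, TMM, quasi-likelihood test), with Benjamini-Hochberg adjustment over all genes and a threshold of 0.05. The 2 single values were compared by exact permutation. Standard errors follow "±" for log2 fold changes and SDs for means. CPM are not per length. Of 16913 gene identifiers, 16887 matched GENCODE M21, and 30 symbols occur more than once.

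The 43 lists (31 of pathways, 12 of cell type markers) and the members were chosen with earlier results of these data known, so a list's direction is not independent evidence. Genes were named if among the 12 smallest p or 5 largest changes in each direction (mean of at least 50 counts, no clone or pseudogene names), up to 4 called members a list with the smallest p, the members a list is known by, and the 3 smallest p of each interaction term. Corin, Klf15 and other members were named as list members after their values were seen. Some genes that the rule names are not reported here. Labels call libraries biological replicates. The fit was tested on simulated data for this comparison (16913 genes, 200 changed). It recovered 28%, 66.5% and 86.5% of changes of 0.25, 0.5 and 1 log2 unit, with 1, 6 and 11 false calls. Far fewer genes changed there than the 3488 called here, which makes the adjustment stricter, so these rates need not hold for the real comparison. Alternatives were gene columns by name, DESeq2 1.42.0 size factors and test, limma 3.58.1 voom with quality weights, other filters and library sizes, only the groups compared, library number, replicate block, each library left out and, added after seeing the data, both replicates 5 left out.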

Additional observations from a re-analysis of the deposited data

Results flagged for a closer look

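In 292 groups of values (a gene or marker sum in TG or in nTG libraries), 22 had 1 library far from the rest by Dixon's test, where chance gives about 1 in 20, or 14.6 of these.

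TG replicate 5 stood apart in red blood cell markers (4626 CPM in sum against 291 to 1151) and adipocyte markers (66.2 against 2.84 to 15.4), and in their members Slc4a1 (22.8 CPM), Cfd (22.3) and Car3 (32.8). nTG replicate 5 stood apart in atrial muscle markers (601 CPM against 29.8 to 136), with Nppa (363 CPM), Myl7 (59.5) and Myl4 (164), and in adipocyte markers (16.7), Cfd (4.73), Car3 (8.18), Mmp2 (85.6) and Egr3 (4.25).

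Single values lay apart in other libraries. Poln was at 1.53 CPM in TG replicate 8, Mybpc2 at 92.3 in TG replicate 4, Fhl2 at 812 in TG replicate 1, Slc8a1 lowest at 538 in TG replicate 2 and Myl7 at 25.3 in TG replicate 6. Among nTG libraries, Tnnt2 was at 3589 CPM in replicate 4, and lymphocyte markers (7.22 in sum) and Slc2a12 (8.36) were highest in replicate 7.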

How the results depend on the processing

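The count of 3488 genes was 3130 to 4222 under the other tools, filters, library sizes and designs, apart from gene columns taken by name, which gave 0 genes, 0 higher and 0 lower. Leaving out single libraries gave 2777 to 3785 genes, 1263 to 1824 higher and 1443 to 2044 lower. By name the difference in totals was 2.26 M and in mitochondrially encoded share 0.0789 points, both reversed, and so were the log2 fold changes of Fbln7 (-0.22), Poln (0.0381), Frmpd3 (0.0258), Aplf (0.12), Tnnc1 (0.0542), Mybpc3 (0.0624), Pfkm (0.0044), Lyve1 (-0.0389), Timd4 (-0.0714), Cfd (-0.84) and Car3 (-0.70). Slc4a1 reversed without TG replicate 5 (-0.19, the lowest with single libraries left out, the highest being 2.11 without nTG replicate 4) and without both replicates 5 (-0.28). Without single libraries the difference in totals was -9.46 to -5.35 M and in mitochondrially encoded share -1.20 to -0.62 points. Without TG replicate 5 (-9.46 M) the permutation test of totals had an adjusted p under 0.05, which no other single library left out gave. For the training term DESeq2 called 1 gene, limma voom 300 and leaving out single libraries 0 to 1 (1 without TG trained male replicate 2). For the sex term DESeq2 called 1, the replicate block 1 and leaving out single libraries 0 to 0. Replicate numbers did not pair the samples (7 pairs, r -0.19 to 0.31, 2 over 0.1, 1 TG library closest to its own number), and the replicate block gave 3690 genes. The other matches joined the same 64 columns. Of the 16 gene columns taken by name, 4 were joined to a sedentary male library and 2 to the group of the label. The cause of the changes under the other settings was not tested. Depth was at least 35.4 M counts in the 16 sedentary male libraries. The simulation, with only 200 genes changed, recovered 28% of changes of 0.25 log2 units. Recovery with as many changed genes as were called here was not simulated, and small changes may be missed.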
